A study of Rattus norvegicus with 20 samples.

Results

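The genes described here are 10 genes that mark microglia, the resident macrophages of the brain, and macrophages that enter it from the blood. They are Aif1, Cd68, Csf1r, Ptprc, C1qa, C1qb, Cx3cr1, Tyrobp, Cd14 and Cd74, a list of known markers. The rule that defines the list uses names and no measured value, although the list was drawn up with earlier results of these data known. The array carried 13 probes named for them among 41012 probes, and 12 of the 13 passed the filter on dim spots. The remaining probe is the second one for Ptprc. Where a gene had several probes, the brightest stood for it, so that all 10 genes were tested among 33092.

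The samples were neurons that the labels call sprouting or non-sprouting, cut out by laser from the cortex of rats aged 2 months, all of which had suffered a stroke. A cholera toxin tracer carrying Alexa 488 was injected beside the infarct, a tracer carrying Alexa 647 followed at the same place after 7 or 21 days, and cells were captured 7 days later. Each cell type of an animal yielded about 300 neurons, whose RNA went through 2 rounds of amplification, and both cell types of an animal were hybridised together on 2 arrays with the dyes exchanged. The groups, called day 7 and day 21, hold 5 animals each from separate cohorts. No group without a stroke is used here, the rat strain is not given in the labels, and the labels do not say which tracer pattern made a neuron sprouting. The quantity reported is the log2 ratio of sprouting over non-sprouting neurons in an animal, so that 0 means equal signal in both, 1 a doubling in sprouting neurons and -1 a halving.

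Microglia depend for survival on the receptor Csf1r, listen to neurons through Cx3cr1, which binds fractalkine from the neuronal surface, and release complement component C1q, which can tag synapses and debris for removal. After a stroke they surround damaged cells, take up debris, and are joined by macrophages from the blood, some of which present antigen on class II molecules. The 10 genes serve as markers of microglia and macrophages and not of neurons. In bulk samples fewer cells of a type and less RNA per cell cannot be told apart.

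Signal of these genes was present in the captured neurons of both kinds. Of the 10 genes, 5 (Aif1, Cd68, C1qa, C1qb and Tyrobp) were well above background in all 40 channels. Ptprc was the faintest by this measure, with 26 of 40 channels, while the remaining genes reached 37 to 39. The 12 neuronal markers examined, such as Snap25 and Rbfox3, were well above background in both cell types on both days, 9 of them in every channel. Median spot signals ran from 98.7 to 344.7 in Cy5 and from 133.9 to 281.4 in Cy3. The 2 arrays of an animal were averaged before testing, so the number of animals, 5 per day, limits the precision. Both arrays of an animal correlated at r = 0.33 to 0.73 across genes in 9 animals, but at r = -0.36 in day 21 replicate 4. In that animal none of the 10 genes had the same sign on both arrays, against 6 to 9 of 10 in the other animals. Its averaged ratios were near 0 (SD over all genes 0.065, against 0.155 to 0.239 elsewhere), so day 21 means are also given without it. If the dyes of 1 of its arrays were labelled the wrong way round, averaging would cancel its ratios. This was not tested.

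**Figure D1:**
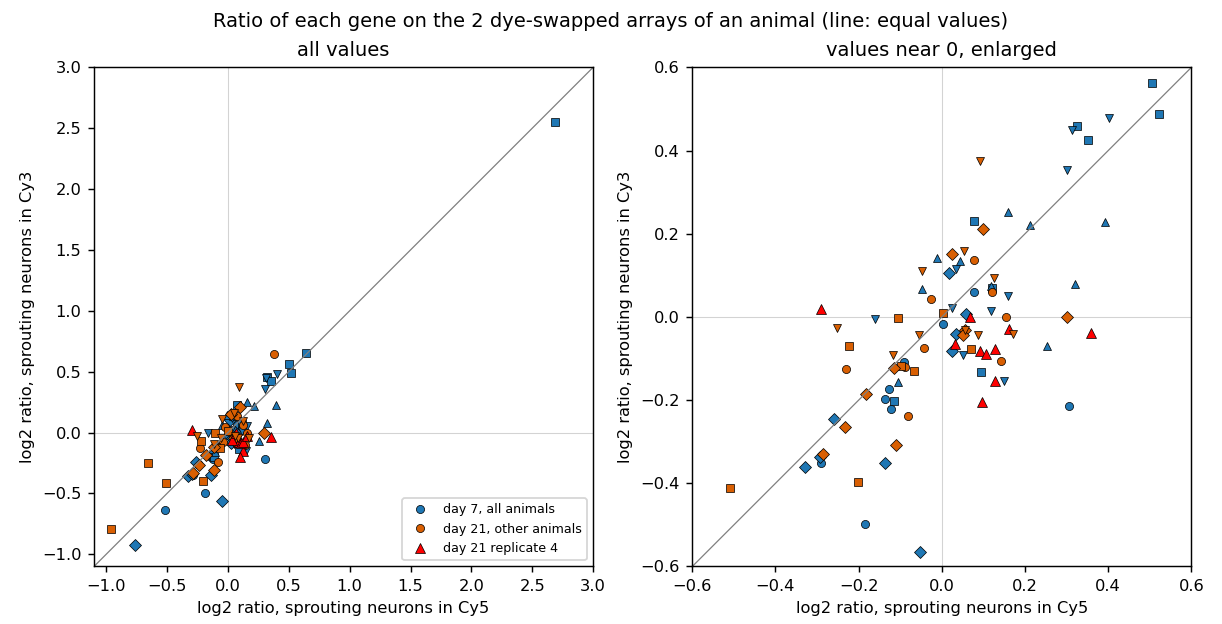
Log2 ratio (sprouting over non-sprouting) of the 10 genes on the array with sprouting neurons in Cy5 (x axis) against the array with sprouting neurons in Cy3 (y axis), 1 point per gene and animal, all values at left and those near 0 enlarged at right. Points near the line have equal values on both arrays, as Cd74 of day 7 replicate 2 at 2.69 and 2.56, while the red points of day 21 replicate 4 differ in sign between the axes.

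The main question of the design is whether sprouting neurons differ from their non-sprouting neighbours. None of the 10 genes differed between the cell types at a Benjamini-Hochberg adjusted p under 0.05 (limma), at day 7, at day 21, over both days or in the change between days. The share of all genes tested that passed was 0.00302% at day 7 and 0% in the other comparisons, so that 0 of 10 is what the array as a whole showed. At an unadjusted p under 0.05, 2 of the 10 genes passed at day 7 (Cd14 higher, Cx3cr1 lower) where 9.46% of all genes did, none at day 21 where 5.84% did, and none in the change between days where 4.09% did. Over both days Cx3cr1 alone passed, against 11% of all genes. At day 7, 7 genes lay higher in sprouting neurons and 3 lower, with a median log2 ratio of 0.042, against a median of -0.005 over all genes, of which 46.5% lay higher. This split rested on 1 animal and on the scaling: 4 lay higher and 6 lower without day 7 replicate 2, and again with each array centred on its median in place of loess. At day 21, 4 lay higher and 6 lower, with a median of -0.038 against -0.001 over all genes, and the split was the same without replicate 4. Without day 21 replicate 2, 6 lay higher and 4 lower.

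Direction varied between animals of the same day. No gene of the 10 had the same sign in all 5 animals at day 7 or at day 21, a pattern that 8.61% and 8.32% of all genes showed. The median ratio of the 10 genes in the day 7 animals was -0.16, 0.39, -0.25, 0.09 and 0.07 for replicates 1 to 5. In the day 21 animals it was 0.01, -0.13, -0.06, 0.01 and 0.03. Thus most of the genes lay lower in sprouting neurons of day 7 replicates 1 and 3, with 8 of 10 below 0 in each, and of day 21 replicate 2, with 9 of 10 below 0. Most lay higher in day 7 replicates 2 and 4, with 8 and 9 of 10 above 0. Leaving out Cd74 gave medians of -0.15, 0.39 and -0.24 in day 7 replicates 1 to 3. The SD of the ratio over the 10 animals exceeded the median SD of all genes (0.12) for 7 of the 10 genes, and the 95th percentile of all genes (0.36) for Cd74 (0.88) and C1qb (0.41).

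**Figure D2:**
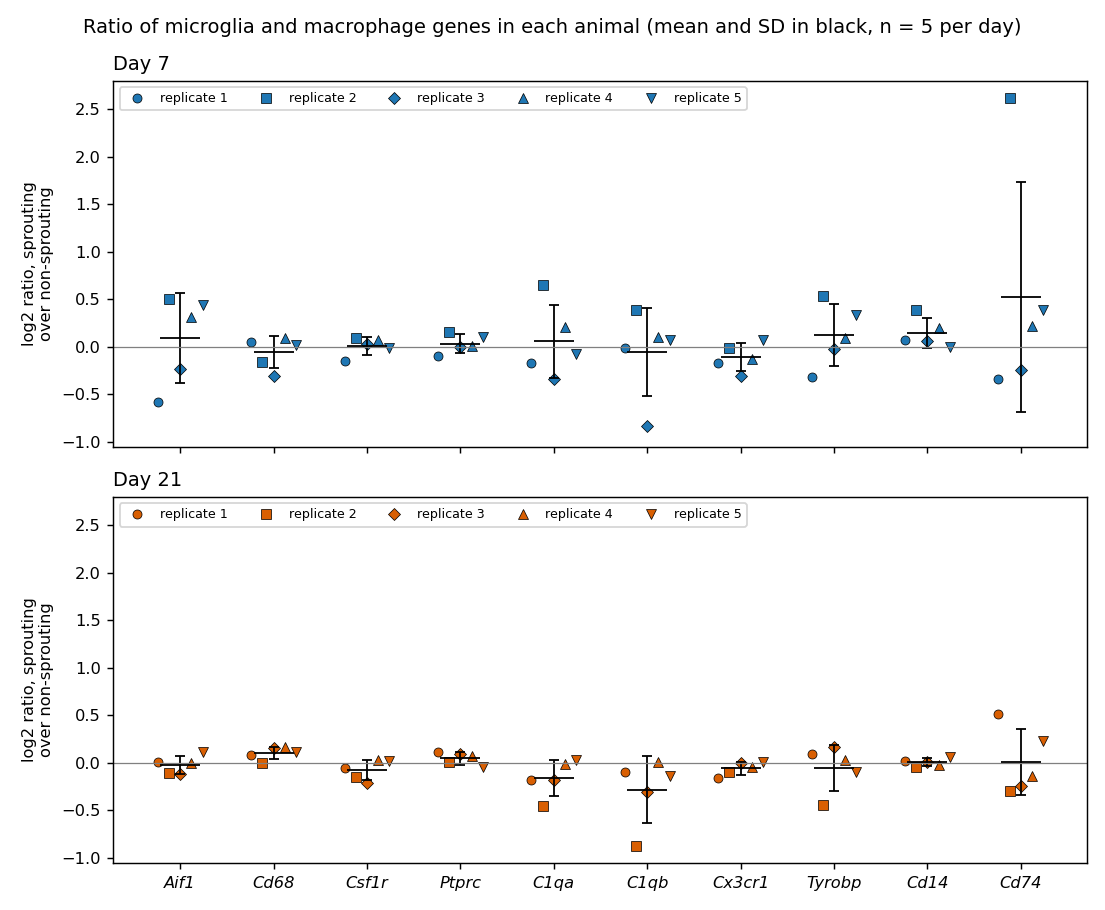
Log2 ratio of sprouting over non-sprouting neurons (y axis) for each of the 10 genes (x axis) in each animal, day 7 above and day 21 below, with 1 marker shape per replicate number. Black lines are the mean and SD of 5 animals. Values fall on both sides of 0 for every gene, and the point of Cd74 in day 7 replicate 2 (2.62) stands far from the rest.

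C1qa and C1qb encode chains of C1q, the recognition molecule that starts the classical complement cascade. They are neighbours on chromosome 5. As described below, the ratios of their brightest probes moved together over the animals. Their promoters are therefore shown, with that of Cd68, a phagocyte gene on another chromosome, for comparison. The sequences are from RefSeq (GRCr8), 250 bases before to 50 after the annotated gene start, on the minus strand for all 3 genes, at chr5:154419884-154420183 for C1qa, chr5:154407778-154408077 for C1qb and chr10:54882392-54882691 for Cd68. They are written 5′ to 3′ along the gene. Capitals mark GAGGAA and GGAAGT, purine-rich words of the kind bound by ETS factors such as the macrophage regulator PU.1 (gene Spi1), together with their reverse complements TTCCTC and ACTTCC.
C1qa: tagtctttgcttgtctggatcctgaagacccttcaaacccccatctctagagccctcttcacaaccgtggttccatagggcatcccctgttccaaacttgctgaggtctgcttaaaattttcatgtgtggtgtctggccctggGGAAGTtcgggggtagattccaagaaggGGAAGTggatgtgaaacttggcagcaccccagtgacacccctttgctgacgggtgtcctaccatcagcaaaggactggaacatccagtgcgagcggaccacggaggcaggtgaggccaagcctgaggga
C1qb: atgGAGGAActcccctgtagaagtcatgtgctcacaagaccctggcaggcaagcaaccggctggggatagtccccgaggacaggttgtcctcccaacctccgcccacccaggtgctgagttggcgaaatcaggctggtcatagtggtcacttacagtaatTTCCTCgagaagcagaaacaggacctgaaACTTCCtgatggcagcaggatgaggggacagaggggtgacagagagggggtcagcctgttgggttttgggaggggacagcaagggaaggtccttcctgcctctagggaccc
Cd68: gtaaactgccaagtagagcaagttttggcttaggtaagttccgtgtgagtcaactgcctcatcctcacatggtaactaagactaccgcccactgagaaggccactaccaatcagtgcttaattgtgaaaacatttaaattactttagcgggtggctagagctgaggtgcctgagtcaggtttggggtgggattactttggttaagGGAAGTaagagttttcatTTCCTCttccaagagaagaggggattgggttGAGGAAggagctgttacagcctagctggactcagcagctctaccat
RefSeq promoters were at hand for 8 of the 10 genes, all but Aif1 and Tyrobp. Searched on both strands, GAGGAA was present in 6 of these 8 and in 27.6% of 33469 rat promoters of the same length, and GGAAGT in 5 of 8 against 22.6%. At least 1 of the words, which can overlap each other, was present in 8 of 8, against 42.3% of all promoters. The words were picked with these promoters in view, and a match describes the letters only.

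The C1qa ratio at day 7 was -0.17, 0.65, -0.34, 0.21 and -0.08 in replicates 1 to 5. At day 21 it was -0.18, -0.46, -0.18, -0.01 and 0.03. Replicate 2 was thus the highest animal of day 7 and replicate 2 of the other cohort the lowest of day 21, and the days overlapped. The mean was 0.05 ± 0.39 (SD, n = 5) at day 7 and -0.16 ± 0.19 at day 21, with adjusted p of 0.914 and 0.895. Without replicate 2 of the respective day the means were -0.10 and -0.09, and without replicate 4 the day 21 mean was -0.20. A second C1qa probe had ratios of -0.20, 0.33, 0.05, 0.10 and 0.04 at day 7 and of -0.46, -0.11, -0.11, 0.06 and 0.08 at day 21. Both probes had the same highest animal at day 7, but in replicates 3 and 5 of day 7 and in replicate 4 of day 21 they differed in sign.

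C1qb spread more widely. Its ratio was -0.01, 0.39, -0.84, 0.10 and 0.07 at day 7. It was -0.10, -0.88, -0.31, 0.01 and -0.14 at day 21. A single animal of each day was far below the rest, replicate 3 at day 7 and replicate 2 at day 21, and in them the signal was 0.56 and 0.54 times that of the non-sprouting neurons. The mean at day 21 was -0.28 (SE 0.16, 95% interval -0.65 to 0.08, adjusted p = 0.854 by limma), and without replicate 4 it was -0.36. Without replicate 2 it was -0.14. At day 7 the mean was -0.06 (interval -0.42 to 0.31), with adjusted p = 0.932.

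Csf1r, the receptor for colony stimulating factor on which microglia depend, was among the steadiest. Its ratio was -0.15, 0.09, 0.03, 0.07 and -0.02 at day 7, and its mean was 0.00 (95% interval -0.10 to 0.10). At day 21 it was -0.06, -0.15, -0.21, 0.03 and 0.02, with a mean of -0.07 (interval -0.17 to 0.03), and of -0.10 without replicate 4. Within each day the animals fell on both sides of 0, and a mean difference beyond 0.17 in either direction lay outside both intervals.

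Cx3cr1, the fractalkine receptor of microglia, was slightly lower in sprouting neurons of most animals. Its ratio at day 7 was -0.17, -0.02, -0.31, -0.13 and 0.07. At day 21 it was -0.16, -0.10, 0.00, -0.05 and 0.01. All but replicate 5 were below 0 at day 7, and values near 0 prevailed at day 21, whose mean was -0.06 with or without replicate 4. The SD was 0.15 at day 7 and 0.07 at day 21, while the limma fit used a spread common to both days. The mean was -0.11 at day 7 (SE 0.05, p = 0.046, adjusted p = 0.527 in the limma fit; -0.06 without replicate 3) and -0.09 over both days (SE 0.04, p = 0.0343, adjusted p = 0.434). Its ligand Cx3cl1, made by neurons, had a ratio of 0.22, 0.19, -0.01, -0.20 and -0.03 at day 7 and of -0.08, -0.72, 0.15, 0.06 and 0.03 at day 21, with values on both sides of 0 on each day.

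Cd14, the co-receptor that hands bacterial lipopolysaccharide and other ligands to Tlr4, had the smallest p of the 10 genes at day 7. Its ratio was 0.07, 0.39, 0.06, 0.20 and 0.00 at day 7. It was 0.02, -0.05, 0.01, -0.02 and 0.06 at day 21. Day 7 animals lay at or above 0 within rounding, led by replicate 2, while day 21 animals clustered around 0 and overlapped with them. The day 7 mean was 0.14 (SE 0.05, p = 0.0165, adjusted p = 0.478 by limma), and it was 0.08 without replicate 2. The fit used a spread common to both days, although the SD was 0.16 at day 7 and 0.04 at day 21. A second Cd14 probe, well above background in 21 of 40 channels, ran from -0.06 to 0.06 at day 7 and had a mean of 0.01, so that the probes differ in size. With the mean of both probes the day 7 value was 0.075, and with the processed signals of the scanner software 0.338. The day 21 mean was 0.00, and 0.01 without replicate 4, but -0.139 with the processed signals. The channel signals of the brightest probe were 86 to 137 at day 7 and 77 to 99 at day 21, on a scale with an offset of 50.

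Tyrobp encodes the adaptor DAP12, which passes on signals of Trem2 and other receptors. Its ratio was -0.32, 0.53, -0.03, 0.09 and 0.33 at day 7. It was 0.09, -0.45, 0.16, 0.03 and -0.10 at day 21. Replicate 2 was again the highest at day 7 and the lowest at day 21, and both days spanned 0. The means were 0.12 (SE 0.12, adjusted p = 0.754) and -0.06 (SE 0.12, adjusted p = 0.969) in the limma fit. Without replicate 2 the day 7 mean was 0.02, and the day 21 mean was 0.04 without replicate 2 and -0.08 without replicate 4.

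Ptprc, the leukocyte phosphatase CD45, varied least. Its ratio was -0.10, 0.15, 0.00, 0.01 and 0.10 at day 7. It was 0.11, 0.01, 0.09, 0.07 and -0.05 at day 21. The day 21 mean was 0.04 with or without replicate 4. All 10 animals were within 0.15 of 0, in a gene whose probe was well above background in 8 of 10 sprouting and 9 of 10 non-sprouting channels at day 7, and in 5 and 4 of 10 at day 21. The second probe, which did not pass the filter on dim spots, ran from -0.08 to 0.13 at day 7 and from -0.04 to 0.10 at day 21.

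Aif1 encodes Iba1, an actin-bundling protein widely used to stain microglia. Its ratio was -0.58, 0.50, -0.24, 0.31 and 0.44 at day 7, 2 animals clearly below 0 and 3 clearly above it. At day 21 it was 0.01, -0.11, -0.12, 0.00 and 0.11, and all 5 animals lay inside the day 7 range. The SD was 0.48 at day 7 and 0.09 at day 21. The limma fit used a spread common to both days, with an SE of 0.14 on each. Neither mean, 0.09 or -0.02, differed from 0 in it (adjusted p = 0.86 and 0.991). The day 7 mean was -0.02 without replicate 2, and the day 21 mean -0.03 without replicate 4.

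Cd68, a lysosomal membrane glycoprotein of phagocytes, showed the largest step between the days relative to its spread. Its ratio was 0.05, -0.16, -0.31, 0.09 and 0.02 at day 7. It was 0.08, 0.00, 0.15, 0.16 and 0.11 at day 21. Day 21 animals lay at or above 0 within rounding, day 7 animals on both sides, and the groups overlapped. The day 21 mean was 0.10, and 0.08 without replicate 4. The ratio was 0.16 higher at day 21 than at day 7 (SE 0.08, p = 0.0647, adjusted p = 0.94 by limma), and 0.10 higher without day 7 replicate 3. Within the 3 scan days that held animals of both days, the difference was 0.43, 0.05 and 0.02, each from 1 animal of day 7 and 1 or 2 of day 21. The day 7 animal behind the value of 0.43, replicate 3, had arrays on 2 scan days. It was counted under the scan day of its first array.

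Cd74, the invariant chain that escorts class II molecules to the compartment where they load antigen, gave the highest single value. Its ratio was -0.34, 2.62, -0.25, 0.22 and 0.38 at day 7. It was 0.51, -0.30, -0.25, -0.14 and 0.23 at day 21. A single animal, day 7 replicate 2, stood 6.15-fold higher in sprouting neurons, and all the others overlapped between days. The excess was on both of its arrays, with log2 ratios of 2.69 and 2.56, and in the sprouting channel, whose log2 level was 10.36 against 7.74 in its non-sprouting neurons. In the sprouting neurons of the other 4 day 7 animals that level was 6.67 to 7.00. The day 7 mean was 0.53 (SE 0.35, 95% interval -0.26 to 1.31, adjusted p = 0.644 by limma), and without that animal it was 0.001. At day 21 the mean was 0.01 ± 0.35 (SD, n = 5), and 0.05 without replicate 4.

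Other genes of the class II pathway were read in the same animal from a list drawn up for that pathway. RT1-Da, the alpha chain of a class II molecule, had a ratio of 2.52 there, and -0.08, -0.19, -0.05 and 0.73 in the other day 7 animals. RT1-Db1, the beta chain, had 1.09 there and -0.02 to 0.10 in the other day 7 animals. Both chains thus shared with Cd74 the animal of their highest value. The cathepsin gene Ctss, which cuts the invariant chain, and Ifi30, a thiol reductase of antigen processing, had ratios of 0.68 and 0.63 there, also their highest. The regulator Ciita (-0.08), RT1-DMa (0.09) and RT1-Bb (0.05) were near 0 in it. A second RT1-Bb probe had a day 7 mean of 0.34 where the brightest had -0.04, so the probes of that gene disagree. Of the 7 pathway genes tested, none passed an adjusted p under 0.05 in a limma contrast, and the list median was 0.006 at day 7 and -0.046 at day 21.

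**Figure D3:**
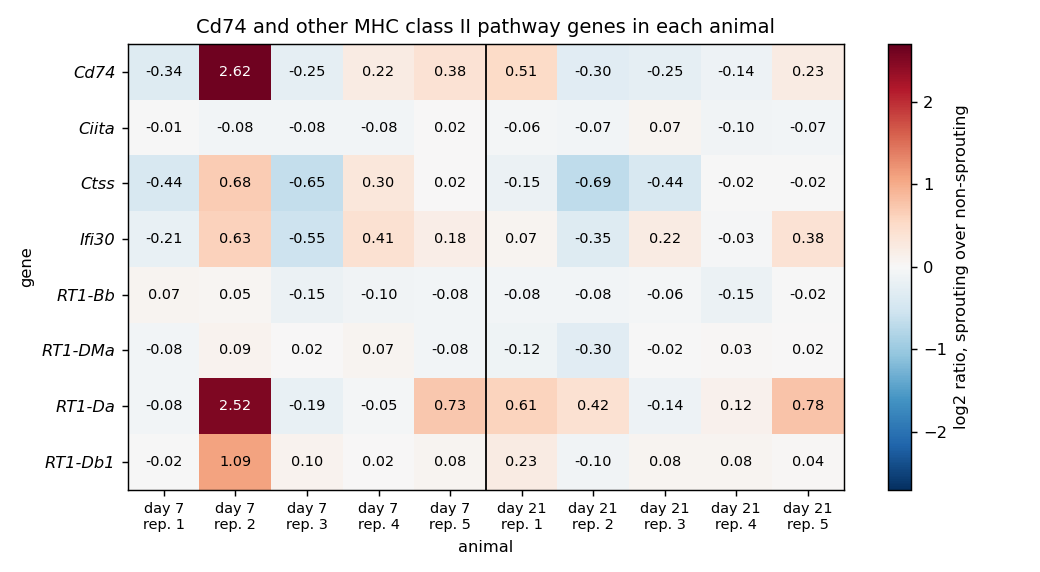
Log2 ratio of sprouting over non-sprouting neurons (colour and printed number) of Cd74 and 7 other genes of the class II pathway (rows, brightest probe) in each of the 10 animals (columns). Day 7 replicate 2 holds the highest values of Cd74 (2.62), RT1-Da (2.52) and RT1-Db1 (1.09), and Ciita stays between -0.10 and 0.07.

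The 10 genes were next compared in pairs over the 10 animals. Of 45 pairs, 37 had a positive Pearson correlation of their ratios, with a median r of 0.54 and a range from -0.38 to 0.89. At an unadjusted permutation p under 0.05, 15 pairs passed by Pearson, and after adjustment over the 45 pairs none did, while 3 passed by Spearman. Pairs drawn from all genes were not examined. The counts therefore do not show whether these genes vary together more than others on the array. The median r was 0.39 without the 2 animals farthest from the median of the first gene of each pair and 0.38 without day 7 replicate 2. It was 0.53 without day 21 replicate 4, 0.61 within day 7 and 0.46 within day 21. Scan days held too few animals for a correlation of their own.

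C1qa and C1qb gave r = 0.83 (permutation p = 0.00318, adjusted p = 0.0687) and rho = 0.87 (permutation p = 0.00237, adjusted p = 0.0355). Without the 2 animals farthest from the C1qa median r was 0.73, and it was 0.80 within day 7 and 0.91 within day 21. All pairs used the brightest probe of a gene. The second C1qa probe was 0.05 in day 7 replicate 3 and -0.11 in day 21 replicate 2, where C1qb was -0.84 and -0.88. The correlation of that probe with C1qb was not computed. Ptprc and Tyrobp gave r = 0.81 and rho = 0.88 (permutation adjusted p = 0.0687 and 0.0355), with r = 0.63 after leaving out the 2 farthest animals. Aif1 and Cd74 gave r = 0.70 and rho = 0.88 (permutation adjusted p = 0.111 and 0.0355), with r = 0.71 after leaving out the 2 farthest animals. The highest r, 0.89 for C1qa and Cd14, came with rho = 0.62 and dropped to 0.53 without the 2 farthest animals. That of Cd14 and Cd74, r = 0.84, dropped to 0.03 and so rested on those animals. Cd68 and Cx3cr1 had no pair at an unadjusted permutation p under 0.05. For Cd68, r ran from -0.38 with Cd14 to 0.54 with Cx3cr1 over the 10 animals. It depended on the animals included: with C1qa it was -0.04 in all, 0.55 without day 7 replicate 2 and 0.80 within day 21, and with C1qb 0.33, 0.67 and 0.81.

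**Figure D4:**
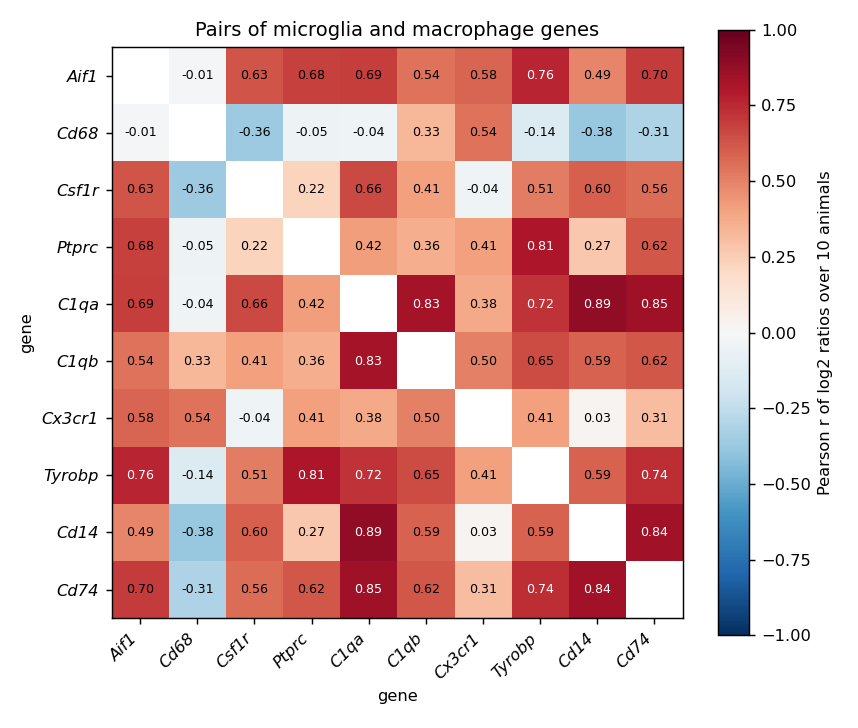
Pearson correlation (colour and printed number) of the log2 ratios of each pair of the 10 genes over 10 animals. Most cells are positive, C1qa with C1qb at 0.83 and Ptprc with Tyrobp at 0.81 among them, while the row of Cd68 runs from -0.38 to 0.54.

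Genes outside the group were ranked by their likeness to it, as Pearson's r over the 10 animals between a gene's ratio and the mean standardised ratio of the 10 genes. Among 14462 named genes measured in all animals, the 8 highest were Snrpn (0.96), P2ry6 and Spata31d3 (0.95 each), Clic1, Fam13b, Tmem176a and Cyba (0.94 each), and Pcdhb15 (0.93). P2ry6 is a nucleotide receptor of microglia that drives phagocytosis, and Cyba a subunit of the phagocyte oxidase. Both were picked out of the 8 for these roles. Whether genes of microglia or macrophages are frequent among the 8 was not tested. P2ry6 had a ratio of 1.14 in day 7 replicate 2, of -0.45 and -0.55 in replicates 1 and 3, and of -0.62 in day 21 replicate 2. These are the animals in which the 10 genes themselves were highest and lowest, which follows from choosing P2ry6 for its likeness to them. With 10 animals and so many candidates the values are a description.

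Other genes of the same pathways were drawn from lists, and none of them passed an adjusted p under 0.05 in any contrast of the limma fit. The complement list had 13 genes tested, of which 11 lay higher in sprouting neurons at day 7 with a list median of 0.143, and 8 at day 21 with a median of 0.004. The day 7 animals disagreed, with 13 of 13 higher in replicate 2 but 3 of 13 in replicates 1 and 3. At an unadjusted p under 0.05, 3 of the 13 lay higher at day 7 (C3, Serping1 and C4a) and 1 lower (Cr1l), against 4.48% and 4.98% of all genes. C3, the central complement component, had ratios of -0.63, 2.01, 0.19, 0.92 and 0.73 at day 7, with a mean of 0.65 (adjusted p = 0.527), and of 0.30 without replicate 2. Its highest animal was replicate 2, as for the C1q genes, and its lowest replicate 1. Serping1, the inhibitor of the C1 proteases, had ratios of -0.51, 1.56, 0.01, 0.55 and 1.47 and a mean of 0.61 (adjusted p = 0.508), or 0.38 without replicate 2, but its second probe had a mean of -0.10. C1qc, the third chain of C1q, had -0.09, 0.42, -0.19, 0.05 and 0.15 at day 7. Its lowest value, -0.46, was in day 21 replicate 2. C1qb and the brightest C1qa probe were also lowest for that day in this animal. The second C1qa probe was lowest in day 21 replicate 1, at -0.46.

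Partners of DAP12, the Fc receptors, Sirpa, Cd200 and Cd200r1 made a list of 8 genes tested. Of these, 4 lay higher and 4 lower at day 7, and 1 higher and 7 lower at day 21. Trem2, the lipid-sensing receptor that signals through DAP12, had ratios of -0.01, 0.57, -0.24, -0.12 and -0.04 at day 7. At day 21 it had -0.26, -0.70, -0.17, 0.04 and 0.09. Its highest day 7 value and its lowest day 21 value were in replicate 2 of each day, which are separate animals. Cd200, a neuronal surface protein that restrains microglia through Cd200r1, was the steadiest gene of the list. Its ratio was 0.00, -0.08, -0.18, -0.13 and -0.19 at day 7 and -0.11, -0.23, -0.13, -0.02 and -0.14 at day 21. No animal was above 0 beyond rounding. The mean over both days was -0.12 (SE 0.03, p = 0.000963, adjusted p = 0.394 by limma). Sirpa, the receptor of the signal that spares cells from being eaten, had a mean of -0.13 over both days (p = 0.0281, adjusted p = 0.425 by limma).

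Lysosomal and phagocytic genes came to 10 tested, 8 of them higher at day 7 (median 0.125) and 5 at day 21 (median 0.002). Of all genes, 46.5% and 49.1% lay higher on these days. The day 7 animals disagreed, with 9 of 10 higher in replicate 2 but 1 and 2 of 10 in replicates 1 and 3. Lamp1, a lysosomal membrane protein, had a day 7 mean of 0.18 (p = 0.0208, adjusted p = 0.478 by limma), and of 0.12 without replicate 2. Lgals3, a lectin of activated phagocytes, had ratios of 0.38, 0.42, 0.34, 0.05 and 1.56 at day 21, all above 0, with a mean of 0.55 (adjusted p = 0.838). Gpnmb, a glycoprotein of lipid-laden phagocytes, reached 1.30 in day 7 replicate 2 and 1.26 in day 21 replicate 5, with a mean of 0.37 over both days (adjusted p = 0.444). Its day 7 mean was 0.38, and 0.15 without replicate 2.

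Genes of resting microglia, such as P2ry12, P2ry13 and Tmem119, came to 12 tested. Of these, 8 lay higher at day 7 (median 0.018) and 3 at day 21 (median -0.038). P2ry12, a purine receptor of surveying microglia, had -0.51, 0.66, -0.38, 0.21 and 0.06 at day 7, and P2ry13 lay below 0 in all 5 day 21 animals (-0.34 to -0.12, adjusted p = 0.838). Cytokines and activation genes came to 20 tested, 9 higher and 11 lower at day 7. Spp1, osteopontin, had ratios of 1.26, 0.79, 1.64, -0.37 and -0.19 at day 7, highest in replicates 3 and 1, where the medians of the 10 genes were lowest, and above 0 also in replicate 2, with a mean of 0.63 (adjusted p = 0.506 by limma). General leukocyte genes (10 tested, 6 higher at day 7 and 1 at day 21), genes of the Csf1r axis (6 tested, 3 and 2) and of the lipopolysaccharide receptor (5 tested, 4 and 2) held no gene at an unadjusted p under 0.05 on either day, as 9.46% and 5.84% of all genes did at day 7 and day 21. Over both days 1 of the 6 genes of the Csf1r axis passed, where 11% of all genes did. It was Spi1, the gene of PU.1, with a mean of 0.08 (p = 0.0467, adjusted p = 0.447 by limma).

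Markers of other cell types moved between the same pairs of samples. The 13 oligodendrocyte markers, all tested, had a median ratio of -0.34, 0.20, -0.07, 0.75 and 0.92 in day 7 replicates 1 to 5. In the day 21 animals it was 0.46, -0.30, -0.37, 0.01 and -0.12. Thus oligodendrocyte markers were highest in day 7 replicates 4 and 5, and the 10 microglia and macrophage genes in replicate 2. Their summed signal was 36931 to 80784 in sprouting and 40204 to 74122 in non-sprouting neurons at day 7, and 14327 to 52898 and 16695 to 46326 at day 21. All 13 were well above background in a share of 0.5 or more of the arrays in each group of samples, 7 of them in every channel, and none was at 0. In sprouting neurons 12 lay higher at day 7 and 2 at day 21, where 46.5% and 49.1% of all genes did. The day 7 animals disagreed, with 3 and 4 of the 13 higher in replicates 1 and 3.

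The other lists shifted less. The 11 astrocyte markers had medians between -0.16 and 0.02 in 9 animals and 0.44 in day 7 replicate 5, with a summed signal of 18785 to 33449 in sprouting and 21546 to 33018 in non-sprouting neurons over both days. The 11 endothelial and mural markers had medians from -0.32 in day 7 replicate 3 to 0.07. For the 12 neuronal markers they ran from -0.07 to 0.16, and for 4 red blood cell genes from -0.18 to 0.16. Lymphocyte markers, 8 of 12 tested, had medians from -0.03 to 0.03 and a summed signal of 841 to 1098, and neutrophil markers, 6 of 8 tested, medians from -0.07 to 0.05 and a summed signal of 529 to 651. No gene of these last 2 lists was well above background in every channel. Summed signals depend on the probes and the number of genes of a list and include the offset of 50 for each probe. They are therefore not compared between lists. The part of other cell types in the results was not tested.

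The level of each gene in a cell type was then compared between days, on the normalised log2 channel level. No gene of the 10 differed between days at an adjusted p under 0.05 in sprouting or in non-sprouting neurons, and 0% of all genes did. At an unadjusted p under 0.05 Cd14 passed in sprouting neurons, where 8.91% of all genes did, and Cd68 and Csf1r in non-sprouting neurons, where 9.13% did. For none of the 10 did the animals of one day lie wholly above those of the other in either cell type, which 1.53% of all genes showed in each.

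Cd68 had levels of 10.27, 10.44, 10.48, 10.24 and 9.70 in non-sprouting neurons at day 7. At day 21 they were 9.36, 10.11, 9.88, 9.44 and 9.89. Only replicate 5 of day 7 fell into the day 21 range, and the mean was 0.49 lower at day 21 (log2 difference -0.49, SE 0.19, p = 0.0252, adjusted p = 0.52 by limma). In sprouting neurons the difference was -0.33 (adjusted p = 0.57). Within the scan days shared by both groups it was -1.08, 0.29 and -0.35 in non-sprouting neurons, hence not of 1 sign, and -0.38 with scan day as a block.

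Csf1r ran the other way. Its levels in non-sprouting neurons were 8.04, 7.95, 7.88, 8.05 and 8.17 at day 7. They were 8.43, 8.11, 8.23, 8.33 and 8.97 at day 21, so that replicate 2 alone reached into the day 7 range. The difference was 0.40 (SE 0.16, p = 0.0264, adjusted p = 0.52 by limma), and 0.26 without day 21 replicate 5. In sprouting neurons it was 0.32 (adjusted p = 0.574). Within shared scan days it was 0.50, 0.00 and 0.92, and 0.44 with scan day as a block.

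Cd14 had levels of 7.10, 6.99, 6.85, 6.77 and 6.43 in sprouting neurons at day 7. At day 21 they were 6.28, 6.41, 6.49, 6.61 and 6.50. Replicate 5 of day 7 again lay within the day 21 range, and the other 4 above it. The difference was -0.37 (SE 0.14, p = 0.0209, adjusted p = 0.543 by limma), -0.23 in non-sprouting neurons, and within shared scan days -0.41, 0.02 and -0.27 in sprouting neurons. With scan day as a block it was -0.21. Day 7 replicates 1 and 2 were the sole animals of their scan days, with each animal counted under the scan day of its first array.

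The remaining genes overlapped widely between days. Aif1 ranged from 9.76 to 10.60 over both cell types and days, and its level averaged over the cell types of an animal varied least of the 10 genes (SD 0.13 over 10 animals). Cd74 varied most (SD 0.73), through day 7 replicate 2. In sprouting neurons its difference between days was -0.63 (adjusted p = 0.684 by limma), and without that animal it was 0.08. The differences of C1qa, C1qb, Cx3cr1, Tyrobp and Ptprc between days ran from -0.35 to -0.01 in sprouting and from -0.34 to 0.13 in non-sprouting neurons, with adjusted p between 0.558 and 0.99.

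**Figure D5:**
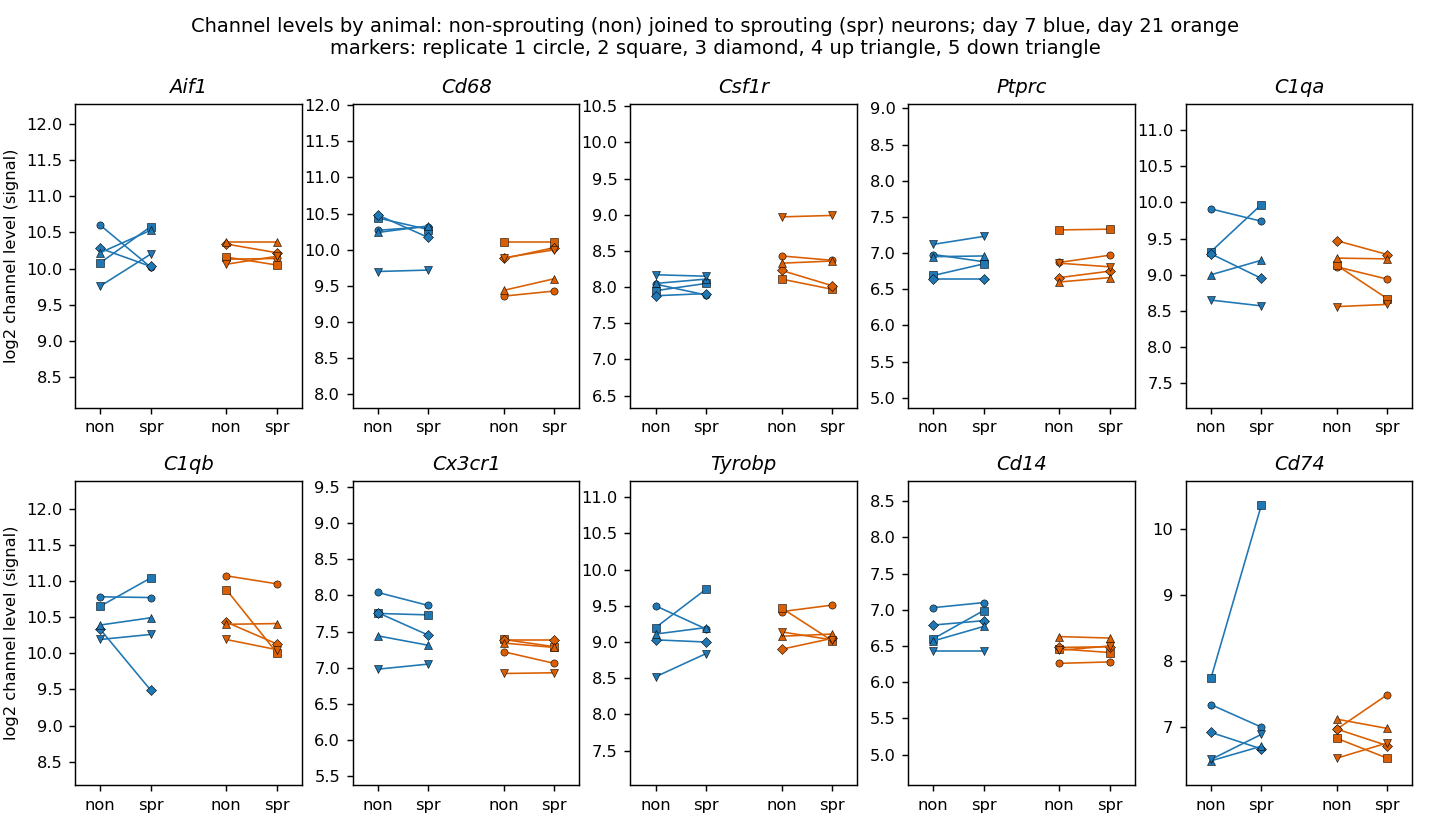
Normalised log2 channel level (y axis, of equal span in every panel but the taller one of Cd74) of the 10 genes in non-sprouting (non) and sprouting (spr) neurons, 1 line per animal, day 7 in blue and day 21 in orange. Lines are close to flat for most animals, and the line of Cd74 in day 7 replicate 2 climbs from 7.74 to 10.36.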

How the data were processed

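The authors deposited 20 scanner files, written by Agilent Feature Extraction 9.1.3.1 per the file headers. Of these, the intensity of 43628 spots in Cy5 and Cy3 (mean signal, with the median of the local background) was used. The processed intensity values in the same files, background-subtracted and dye-normalised per the file headers, served as an alternative. The authors also deposited a table of log2 ratios of Cy5 over Cy3, whose method is not given in the sources used here. Each of its 20 ratio columns correlated best with its own array (r from 0.95 to 1), 75 values were missing, and 20 further value columns were not used. Its scale and direction were settled by this match, and its column medians were 0.01 to 0.02.

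Background was corrected by normexp (offset 50) and ratios by loess within arrays, with 2256 control spots at weight 0 and outlier spots left out (limma 3.58.1, R 4.3.3). Every ratio was oriented as sprouting over non-sprouting, and the dye-swapped arrays of an animal were averaged. Kept probes exceeded background clearly in a share of 0.5 or more of the arrays of 1 cell type and day and were measured in at least 3 animals per day. The brightest probe stood for a gene, and symbols were matched to the GRCr8 table of RefSeq. Tests of the ratios used lmFit and eBayes of limma, two-sided, with both days in 1 model (2.24 prior degrees of freedom), adjusted by Benjamini-Hochberg over 33092 genes. Channel levels were compared between days after Aquantile normalisation. Levels are not compared between probes. Pairs of genes were tested with 100000 permutations. The method was tested on simulated data. The 10 genes and all lists were chosen with earlier results of these data known. Named genes are the 10, from the pathway lists up to 8 per contrast at an unadjusted p under 0.05, and the 8 most like the group. Cx3cl1, C1qc, Trem2, P2ry12, Tmem119, Csf1, Itgam, Tlr4 and the other class II genes were named after their values were seen.

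Replicate numbers name animals of separate cohorts, so same-numbered animals of the 2 days are not pairs. Their deviations correlated at -0.19 to 0.00. Alternatives covered the background, the scaling, the filter, probes, arrays, scan day, the replicate number and leaving out each animal.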

Additional observations from a re-analysis of the deposited data

Results flagged for a closer look

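Of 60 groups of 5 animals (ratio, sprouting level and non-sprouting level of the 10 genes on each day), 4 held an animal whose gap to its nearest neighbour exceeded Dixon's limit. Chance flags about 1 in 20 groups. The Cd74 ratio of day 7 replicate 2 was 2.62, while the other 4 animals lay between -0.34 and 0.38. Its Cd74 log2 level in sprouting neurons was 10.36, against 6.67 to 7.00. The Cd68 level in sprouting neurons of day 7 replicate 5 was 9.72, below the 10.17 to 10.33 of the others. The Tyrobp level in sprouting neurons of day 21 replicate 1 was 9.51, above the 9.02 to 9.11 of the others.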

How the results depend on the processing

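None of the 10 genes passed an adjusted p under 0.05 under any alternative that was run, with limma throughout. The count of all genes that passed moved from 1 at day 7 to 0 with median centring, with the processed signals and with the mean of all probes of a gene. Fitted on 20 arrays with a dye term and a random block per animal, 402 genes passed at day 7, 510 over both days (main count 0) and 4 in the change between days (main count 0). With the replicate block 0 genes passed at day 7, and the block changed no other call. Leaving out 1 animal gave counts of 0 to 1 at day 7. At an unadjusted p under 0.05, day 7 counts fell from 3130 to 1695 genes with the processed signals. The stricter filter gave 1221 against 1934 at day 21 and 870 against 1352 in the change, and the array fit 2037 in the change. Without day 21 replicate 2, 1108 passed at day 21. For levels between days, scan day as a block, chosen after seeing the data, gave 1383 against 2950 in sprouting and 1479 against 3020 in non-sprouting neurons. Leaving out 1 animal gave 1860 (without day 7 replicate 2) to 5982 (without day 7 replicate 5) in sprouting neurons. In non-sprouting neurons it gave 1975 and 2005 (without day 7 replicates 1 and 2) to 6360 (without replicate 5). The stricter filter left 9 of the 10 genes, all but Ptprc, among 23356, and no filter left 36318.

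Values near 0 changed sign, none of them called, and the cause was not tested. The following are log2 values. Over the settings that kept all animals, day 7 ratios ran from 0.075 to 0.338 for Cd14, from -0.182 to -0.093 for Cx3cr1, from -0.198 to -0.061 for Cd68, from -0.201 to -0.056 for C1qb and from 0.47 to 0.603 for Cd74. The Cd68 change between days ran from 0.16 to 0.257. Without background subtraction, Csf1r at day 7 was -0.003 and Cd14 at day 21 -0.001, and the Ptprc level differed between days by 0.034 in sprouting and 0.015 in non-sprouting neurons. With median centring, day 7 ratios were -0.054 for Aif1, -0.044 for Csf1r and -0.049 for C1qa, and the Ptprc change was -0.045. With the processed signals, Csf1r at day 7 was -0.023, and at day 21 Aif1 was 0.004, Ptprc -0.076, Cd14 -0.139 and Cd74 -0.033, with a Ptprc change of -0.146. The deposited log2 ratios gave -0.002 for Cd74 at day 21. Scan day as a random block gave -0.001 for Cd14 and -0.015 for Cd74 at day 21, and as a fixed block -0.004 for the Ptprc change. Quantile normalisation gave 0.003 for the Ptprc level in sprouting neurons. With scan day as a block, differences in level between days in sprouting neurons were 0.029 for C1qa, 0.245 for C1qb, 0.135 for Tyrobp and 0.123 for Cd74. In non-sprouting neurons they were 0.073 for C1qa and 0.197 for Cd74. Leaving out 1 animal in turn, the day 7 ratio ranged from -0.018 to 0.253 for Aif1, from -0.10 to 0 for Cd68, from -0.018 to 0.043 for Csf1r, from -0.097 to 0.151 for C1qa and from -0.17 to 0.139 for C1qb. The day 21 ratio ranged from -0.053 to 0.003 for Aif1, from -0.108 to 0.044 for Tyrobp, from -0.01 to 0.019 for Cd14 and from -0.113 to 0.09 for Cd74. The change ranged from -0.022 to 0.041 for Ptprc and from -0.729 to 0.011 for Cd74. Level differences in sprouting neurons ranged from -0.113 to 0.073 for Ptprc, from -0.331 to 0.058 for C1qb, from -0.139 to 0.087 for Tyrobp and from -0.843 to 0.079 for Cd74. In non-sprouting neurons they ranged from -0.083 to 0.127 for Aif1, from -0.133 to 0.049 for Ptprc, from -0.278 to 0.036 for C1qa, from -0.012 to 0.235 for Tyrobp and from -0.243 to 0.067 for Cd74.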

Other observations

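Csf1, a ligand of Csf1r, was highest in day 7 replicate 5, with a log2 ratio of 0.86 there and of -0.29, 0.29, 0.04 and 0.07 in replicates 1 to 4. Itgam, a chain of complement receptor 3 that takes up particles coated with C3 fragments, was also highest in that animal (0.56). The oligodendrocyte markers had their highest median in it (0.92) as well, while C1qa was at -0.08 and C1qb at 0.07. Tlr4, which receives ligands from Cd14, had 0.42 there and -0.24 in replicate 1. At day 21 the class II alpha chain RT1-Da had ratios of 0.61, 0.42, -0.14, 0.12 and 0.78, and it was the sole gene of its list above 0.40 in 3 animals of that day. Cd74 was above 0 in 2 of these 3, at 0.51 and 0.23, and at -0.30 in the third.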
